A study of Mus musculus with 12 samples.

Results

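The γδ T cells of the spleen, taken from mice with and without GFI1, were compared across all genes and grouped by gene function. Cells of the 4 splenic γδ T libraries were kept when they held at least 500 UMIs (unique molecular identifiers, each standing for a counted transcript) and at most 20% mitochondrial counts, which left 38474 of 38495 barcodes, out of 96911 cells in the 12 libraries of the series. Spleens of adult mice were freed of red cells, depleted of B, myeloid and NK cells with antibodies and magnets, and sorted for CD3+ CD4- γδ T cells. The KO is a germline loss of GFI1 made in earlier work, and all mice were on the C57BL6/J background. WT and KO cells carried different hashtag antibodies, were pooled, run together on 10x Genomics 3′ chemistry and separated again by hashtag, which gives 2 libraries per genotype from 2 pools. How many animals went into a library is not given in the sources used here, so the p-values below measure only the spread between these libraries, which may be technical.

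γδ T cells carry a receptor made of a γ and a δ chain and divide into subsets that are set apart in the thymus, among them IL-17 producers (γδT17 cells) and producers of interferon-γ. γδT17 cells settle in barrier tissues and are known for a metabolism and surface receptors that differ from those of naive-type cells, which recirculate through lymphoid organs. GFI1 is a zinc finger protein that represses transcription through corepressors such as CoREST and histone-modifying enzymes such as the demethylase LSD1. The comparison asks how the transcriptome of the splenic γδ T pool differs between the genotypes, including the genes of the ribosome, which make up much of the RNA counted per cell.

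The WT libraries held 7820 and 11160 cells with 42091895 and 59524554 UMIs, and the KO libraries 7815 and 11679 cells with 46817173 and 69504211 UMIs. Median depth per cell lay between 4947 and 5458 UMIs. Pairs of values below give replicate 1 and then replicate 2. Libraries of a pool shared no barcode, and libraries of different pools shared 15 to 26. Markers of γδ T cells were present in all 4 libraries: 7 of 7 were tested, 4 rose and 1 fell, with a summed level of 4456 to 4660 CPM (counts per 1e6 UMIs of a library) in WT and 6383 to 6677 CPM in KO. Of the αβ T cell markers, 5 of 6 were lower in KO (1745 to 1806 CPM in WT, 993 to 1031 CPM in KO), and Cd4 was at most 0.095 CPM in any library. B cell and plasma cell markers did not move together. Igkc, Jchain and Ighm were highest in WT replicate 1, with 1548 and 1.55 CPM in WT and 276 and 10.5 CPM in KO libraries for Igkc and 212 and 0.521 CPM in WT and 34.8 and 0.518 CPM in KO libraries for Jchain, and Ighm had 411 and 195 CPM in WT and 67.6 and 10.5 CPM in KO libraries, while the defining B cell gene Ms4a1 was at most 0.261 CPM. Ighm and Ighd fell in KO (adjusted p = 0.0253, up to 0.224 over the alternatives, and 7.31e-06), with 3.30 and 3.66 CPM in WT and 0.342 and 0.115 CPM in KO libraries for Ighd. Cd79b, of the B cell receptor, and Sdc1, of plasma cells, rose in KO (27.9 and 23.7 CPM in WT and 50.9 and 50.8 CPM in KO libraries for Cd79b and 3.25 and 2.70 CPM in WT and 5.49 and 8.07 CPM in KO libraries for Sdc1, adjusted p = 0.000131 and 0.00499). Neither rose among the cells whose leading γ chain gene was Trgv6, which are described below. There Cd79b had 98.8 and 56.9 CPM in WT and 46.8 and 49.6 CPM in KO libraries (log2 −0.71, edgeR adjusted p = 0.0589). Sdc1 had 15.3 and 18.5 CPM in WT and 4.73 and 8.23 CPM in KO libraries there (log2 −1.42, edgeR adjusted p = 0.0127). The part of these transcripts in the results was not tested beyond leaving out 1 library at a time, which keeps the other library of pool 1. Markers of erythroid cells and platelets summed to 39.0 to 44.1 CPM in WT and 75.1 to 168 CPM in KO, NK cell markers to 55.8 to 56.1 and 35.3 to 37.3 CPM, myeloid markers to at most 5.39 CPM, and markers of stroma and endothelium, nearly all from Pecam1, to 195 to 206 and 153 to 155 CPM. Gfi1 itself (ENSMUSG00000029275) had 11.8 and 17.96 CPM in WT and 18.1 and 18.1 CPM in KO libraries, and the genotypes did not differ by the test (log2 0.39, SE 0.19, adjusted p = 0.124), except without WT replicate 2, where the adjusted p was 0.015. These are tags of the transcript's 3′ end, and which part of the gene the KO allele lacks is not given in the sources used here, so they check nothing, and KO below follows the labels.

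UMIs were summed per gene and library, and 18056 genes were tested with edgeR's quasi-likelihood test. At a Benjamini-Hochberg adjusted p under 0.05, the level used throughout, 4751 genes (26.3%) rose and 4675 (25.9%) fell in KO, and 5069 of these differed more than 2-fold. The counts for gene lists below are to be read against these background shares. Lists with shares near or below them, such as those of MHC class I, immediate early, lipid, integrin, cytokine, S phase and GFI1 partner genes, are no result about their members. Many named genes were picked for large differences among called genes, so that their libraries do not overlap is description only. How many of all genes show no overlap was not counted. In summed libraries, fewer cells of a subset and less RNA per cell cannot be told apart. This matters here since the numbers of cells whose leading γ chain gene was Trgv6 differed. In the WT libraries they were 188 and 229, of 4366 and 6653 cells with a single leading γ chain variable gene. In the KO libraries they were 3422 and 4613, of 5183 and 7992 such cells. The comparison was therefore also made within these Trgv6-called cells, as described further on.

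**Figure D1:**
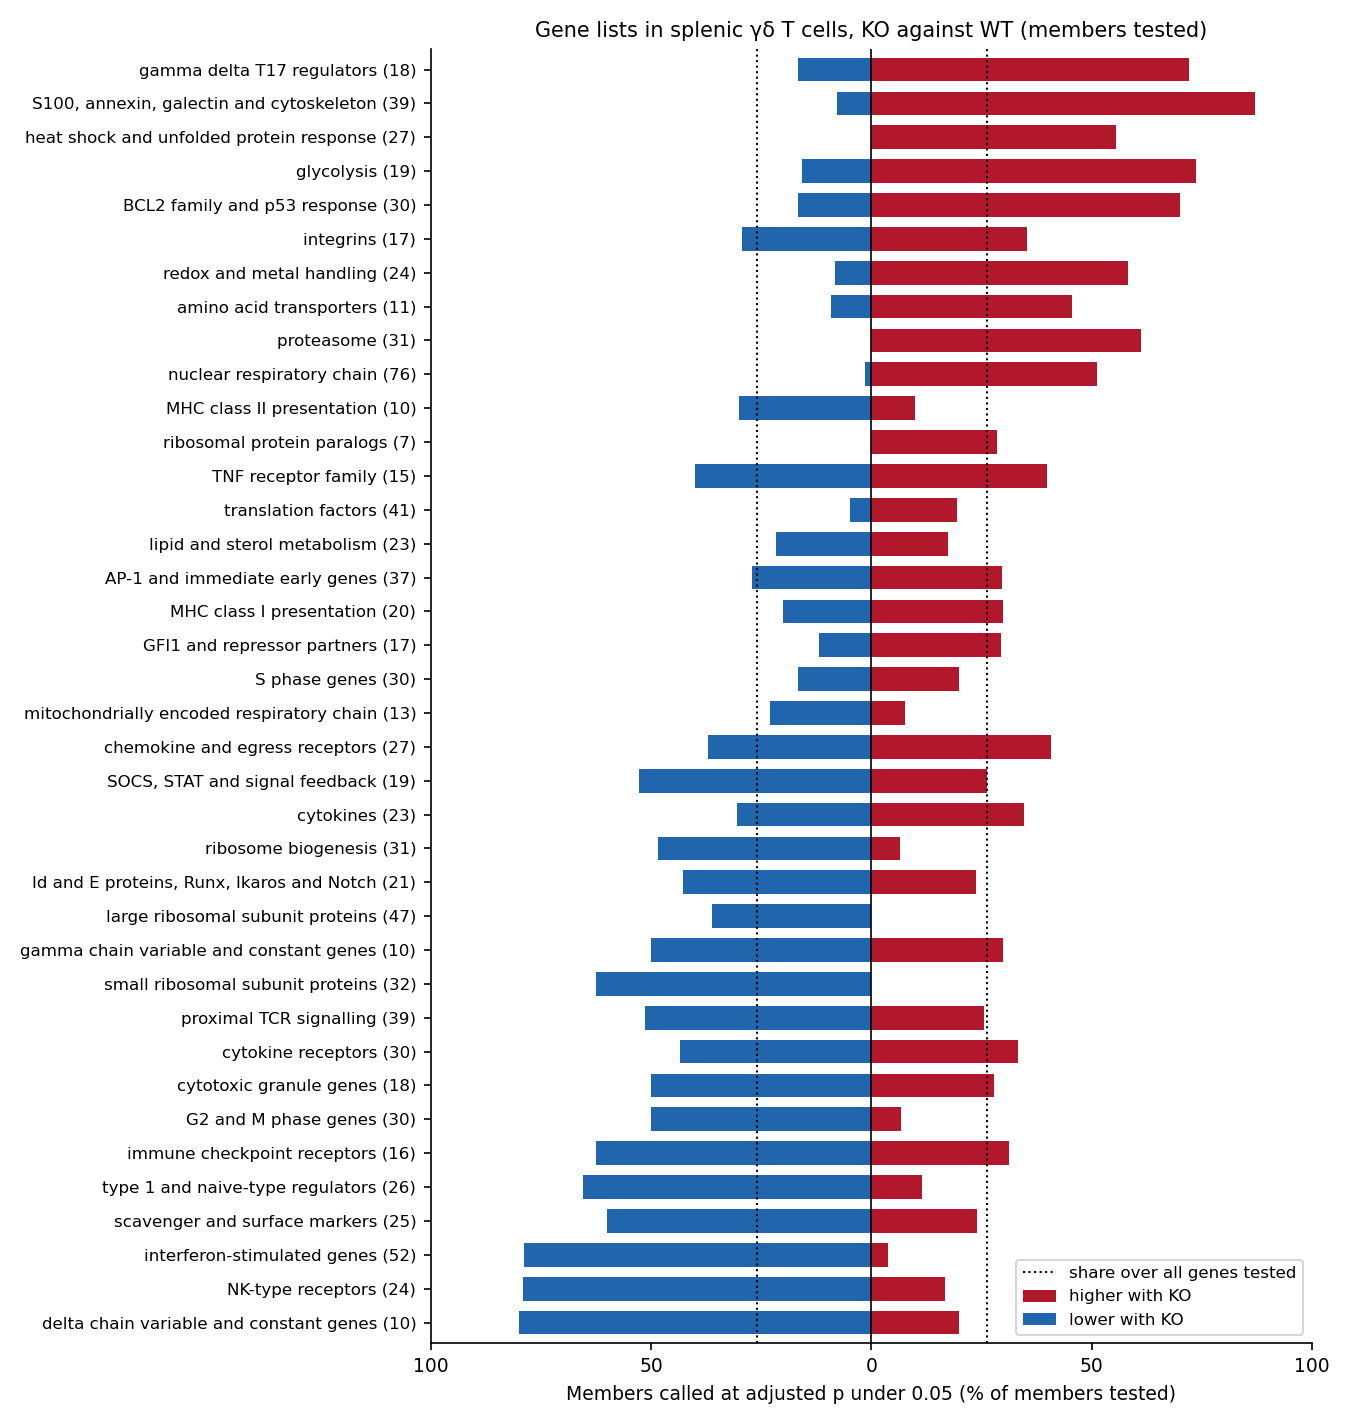
Share of tested members called higher (right) and lower (left) in KO for 38 gene lists, in percent of members tested, with the number tested in brackets after each name. Dotted lines mark the shares over all genes tested, 26.3% higher and 25.9% lower. The lists of S100 and cytoskeletal genes, glycolysis and γδT17 regulators extend far to the right, those of NK-type receptors and interferon-stimulated genes far to the left, and both ribosomal lists hold lower members only.

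Ribosomal protein genes fell in KO. Together they took 22.6% and 22.01% of all UMIs in the WT libraries and 16.4% and 14.7% in the KO libraries (22.3% ± 0.392 against 15.6% ± 1.17, SD, n = 2 each). Both KO libraries lay below both WT libraries. The share fell by 6.17 points in the pool of replicate 1 and it fell by 7.26 points in that of replicate 2. With 2 libraries a group an exact permutation test (two-sided) cannot go below p = 0.33, which is what it gave. Of 47 proteins of the large subunit, none rose and 17 fell (median log2 difference −0.36), and of 32 proteins of the small subunit, none rose and 20 fell (median −0.43), beside a median of −0.02 over all genes tested, which was −0.12 when scaled by library size alone. None was higher at an unadjusted p under 0.05 either, in edgeR's test, or by DESeq2, which called 22 and 24 lower. With the pool as a block, 35 and 27 fell. The count depended on the libraries: leaving out WT replicate 1, WT replicate 2 or KO replicate 2 gave 8, 10 and 3 for the large subunit and 10, 10 and 5 for the small subunit. The direction did not turn in any of the alternatives, over which the median ran from −0.48 to −0.26 for the large and from −0.56 to −0.35 for the small subunit. Many of these genes have processed pseudogenes and near-identical copies in the genome, among which reads may have been split.

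The largest falls among the called members came from both subunits. Rpl12, a protein of the stalk base of the large subunit, had 3801 and 3548 CPM in WT and 2156 and 1869 CPM in KO libraries, which did not overlap (log2 −0.76, SE 0.13, adjusted p = 0.000657). Rps18, in the head of the small subunit, had 3959.5 and 3391 CPM in WT and 2211 and 1788 CPM in KO libraries, again without overlap (log2 −0.77, SE 0.18, adjusted p = 0.00451). Rps24 had 7363 and 7289.6 CPM in WT and 4412 and 4114 CPM in KO libraries and lost more CPM than any other gene (log2 −0.67, SE 0.16, adjusted p = 0.00508). Rps15a, Rplp1 and Rpl13 followed, each lower in both KO libraries by 0.68, 0.58 and 0.68 on the log2 scale. In Rpl36a, Rpl37 and Rps20 the log2 differences were −0.75, −0.68 and −0.70. Several of these calls were lost without KO replicate 2, where the adjusted p was 0.0534 for Rps18, 0.0522 for Rpl13, 0.0761 for Rpl36a, 0.0666 for Rpl37 and 0.053 for Rps20, and without WT replicate 1 it was 0.0528 for Rpl36a. Of members that did not pass the test, Rpl13a, chosen after its values were seen, had 3291 and 2902 CPM in WT and 3468 and 2918 CPM in KO libraries, which overlapped (log2 0.15, SE 0.15, adjusted p = 0.401), and Fau, which encodes a small subunit protein fused to a ubiquitin-like domain, had 4044 and 4102 CPM in WT and 3536 and 3310.3 CPM in KO libraries (log2 −0.14, SE 0.14, adjusted p = 0.44). Rpl19, Rpl30 and Rps14 had log2 differences of −0.27, −0.26 and −0.37 with adjusted p of 0.115, 0.176 and 0.0562, and with the pool as a block the adjusted p was 0.015, 0.0252 and 0.00354.

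**Figure D2:**
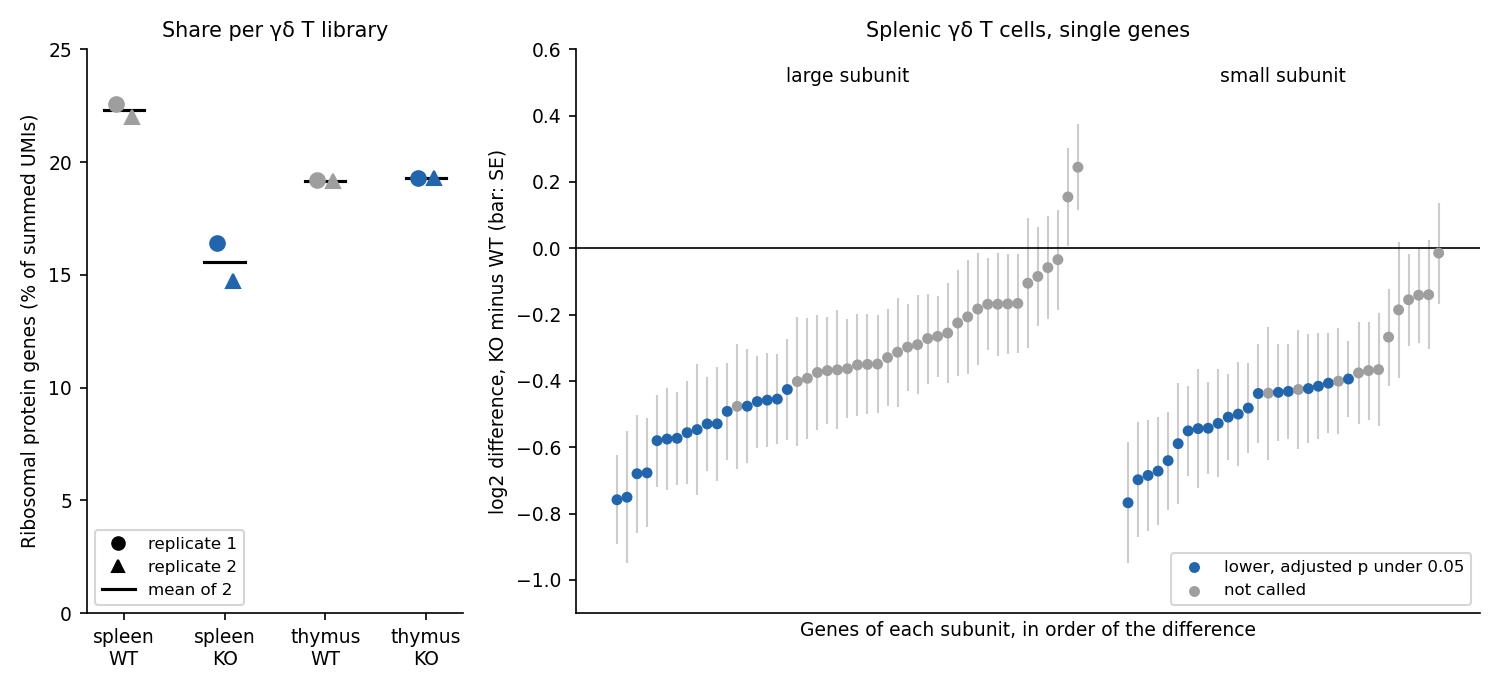
Left: ribosomal protein genes as a percentage of the summed UMIs of each splenic and thymic γδ T library (symbols are libraries, bars the mean of 2). Right: log2 difference KO minus WT of every large (47) and small (32) subunit gene in spleen, in order of size, with bars of 1 SE. In spleen the KO libraries lie at 16.4% and 14.7%, below the WT libraries at 22.6% and 22.01%, the thymic genotypes lie side by side, and 37 of 79 genes are lower with an adjusted p under 0.05.

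Transcripts of most ribosomal proteins are known to begin with a C followed by a run of pyrimidines, the 5′ terminal oligopyrimidine (TOP) tract, through which their translation is controlled as a group. The starts of 58 of the 79 genes could be matched in RefSeq (GRCm38.p6). On the strand with the sequence of the RNA, a C followed by at least 4 C or T was searched for. It stood exactly at the annotated start in 14 of the 58 (24.1%), against 3.01% of all 27025 genes. Within 10 bases of the start it was found in 35 of the 58 (60.3%) against 34.4% of all genes. Of the genes with a tract there 14 of 35 fell (median log2 difference −0.40), and of those without it 13 of 23 (median −0.43), a difference that was not tested. Windows are shown for genes that fell (Rpl12, Rps18, Rpl13) and for a gene that was not called (Rpl19). Rpl12, Rps18 and Rpl19 have a tract within 10 bases of the start, and Rpl13 has none. Each window is 30 bases of the strand with the sequence of the RNA, 5′ to 3′. It holds 15 bases before the annotated start of the first exon and 15 from it on. Capitals mark the match that begins nearest to that start, up to the next purine. Pyrimidines also stand directly before the match in Rpl12, in Rps18 and at the downstream start of Rpl19, and at both starts of Rpl19 the match ends just before the annotated start. Rpl12 lies at chr2:32961697-32961726 (+), Rps18 at chr17:33955651-33955680 (−), Rpl13, where no match begins within 10 bases of the start, at chr8:123102335-123102364 (+), and the 2 annotated starts of Rpl19 at chr11:98026695-98026724 and chr11:98026909-98026938 (+), all in GRCm38.p6.
Rpl12: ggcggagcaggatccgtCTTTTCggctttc
Rps18: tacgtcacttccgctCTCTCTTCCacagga
Rpl13: ttccctttcgcctgattttgattggcgttt
Rpl19 upstream start: tgaccaaacgCCCTCactgcgcatgtgcgc
Rpl19 downstream start: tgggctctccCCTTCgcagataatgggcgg

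As a description of the same promoters (250 bases before to 50 after the start), the letters AAATCAC, the core of the site bound by GFI1, were found on either strand in 2.75% of genes that rose, 2.88% of genes that fell, 2.70% of tested genes that were not called and 3.64% of all genes.

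Of 7 paralogs of ribosomal proteins tested 2 rose and none fell, and with the pool as a block 2 rose and 2 fell. Leaving out KO replicate 1 or WT replicate 2 gave 0 that rose, and leaving out WT replicate 1 gave 1. Rps27l rose (198 and 159.9 CPM in WT and 276 and 233 CPM in KO libraries, log2 0.62, SE 0.18, adjusted p = 0.0152), while Rps27, which differs from it by few residues, fell (3157 and 2879.8 CPM in WT and 2067 and 1811 CPM in KO libraries, log2 −0.53, SE 0.16, adjusted p = 0.0181). Neither call held throughout: the adjusted p of Rps27l was 0.126 without KO replicate 1 and 0.134 without WT replicate 2, and that of Rps27 was 0.093 without WT replicate 1 and 0.131 without KO replicate 2. Rpl36al, a retrocopy of Rpl36a, had 669.6 and 643 CPM in WT and 781 and 743 CPM in KO libraries (log2 0.33, SE 0.15, adjusted p = 0.0919, 0.00706 with the pool as a block), opposite in sign to Rpl36a. Rpl22l1 had 618 and 609 CPM in WT and 464 and 416 CPM in KO libraries and Rpl22 had 1728 and 1607 CPM in WT and 1361 and 1165 CPM in KO libraries, both lower in KO without passing the test (adjusted p = 0.104 and 0.128, and 0.00725 and 0.0104 with the pool as a block). Rpl39l had 1.71 and 1.68 CPM in WT and 29.8 and 3.09 CPM in KO libraries, of which KO replicate 1 was far above the others, and passed the test (log2 3.38, SE 1.17, adjusted p = 0.0409), but not with the block (adjusted p = 0.087) or without KO replicate 1 (0.474), WT replicate 1 (0.136) or WT replicate 2 (0.139). The partner Rpl39 had a log2 difference of −0.48 (adjusted p = 0.0523, 0.00147 with the block), and Rpl7l1 and Rpl7 differed by 0.15 and −0.30 (adjusted p = 0.321 and 0.0778, the latter 0.0121 with the block).

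Genes that build ribosomes also fell more often than they rose, whereas few translation factors changed. Of 31 genes of ribosome biogenesis, 15 fell and 2 rose (median log2 difference −0.31), and 8 fell without WT replicate 2. Gnl3, a nucleolar GTPase, had 50.6 and 53.5 CPM in WT and 24.99 and 28.0 CPM in KO libraries, with KO below WT in both pools (log2 −0.87, SE 0.14, adjusted p = 0.000314). Utp20, a scaffold of small subunit assembly, had 25.9 and 27.8 CPM in WT and 13.5 and 14.6 CPM in KO libraries (log2 −0.83, SE 0.09, adjusted p = 2.85e-05), and Wdr12, of large subunit assembly, 30.9 and 36.3 CPM in WT and 16.6 and 19.4 CPM in KO libraries (log2 −0.79, SE 0.14, adjusted p = 0.00052). The helicase gene Ddx21, which acts on ribosomal RNA, went the other way, from 112 and 122 CPM in WT to 179 and 199 CPM in KO (log2 0.80, SE 0.11, adjusted p = 0.000127). Npm1, encoding the nucleolar chaperone nucleophosmin, had 861 and 849 CPM in WT and 599.5 and 572 CPM in KO libraries (log2 −0.44, SE 0.17, adjusted p = 0.0511, 0.0073 with the block). Among 41 translation factors 8 rose and 2 fell (median 0.10, or −0.01 when scaled by library size alone and 0.05 without KO replicate 1), with 14 rising and 4 falling under the block, 7 falling when scaled by library size alone, and 3 rising without WT replicate 1 and 2 without KO replicate 2. Both that fell belong to the elongation factor complex that reloads eEF1A: Eef1b2 had 1239 and 1243 CPM in WT and 801 and 745 CPM in KO libraries (log2 −0.57, SE 0.13, adjusted p = 0.00346) and Eef1g 448 and 406 CPM in WT and 279.7 and 246 CPM in KO libraries (log2 −0.59, SE 0.14, adjusted p = 0.00436). The transcripts of both are classed with the TOP mRNAs, as are Eef1a1 (log2 −0.01, adjusted p = 0.964) and Tpt1 (log2 −0.01, adjusted p = 0.961), which did not differ by the test. Eif1ax, which helps to open the initiation complex for scanning, rose from 74.0 and 68.3 to 104 and 102 CPM (log2 0.65, SE 0.13, adjusted p = 0.00159).

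Genes of the respiratory chain that are encoded in the nucleus rose in large part, while most of those in the mitochondrial genome were not called. Of 76 nuclear genes 39 rose and 1 fell (median log2 difference 0.36). The count of rising genes was 60 with the pool as a block. Leaving out WT replicate 1 gave 22, WT replicate 2 gave 17, KO replicate 1 gave 17 and KO replicate 2 gave 24, and the median stayed between 0.25 and 0.41. Ndufa1, a subunit of complex I, had 119 and 109.9 CPM in WT and 276 and 231 CPM in KO libraries, with both KO above both WT libraries (log2 1.26, SE 0.15, adjusted p = 3.81e-05). Cox5a, of cytochrome c oxidase, had 248 and 236 CPM in WT and 525 and 519 CPM in KO libraries, also apart (log2 1.22, SE 0.13, adjusted p = 1.56e-05), and the complex I genes Ndufs5 and Ndufv3 rose by 1.12 and 0.92 on the log2 scale. The gene that fell was Cox7a2l (log2 −0.39), named after its value was seen, which encodes an assembly factor of respiratory supercomplexes. Of the 13 mitochondrially encoded genes 1 rose, 3 fell and 9 were not called, with neither called share above that over all genes tested. With the pool as a block 5 fell. Their median of −0.14 turned to 0.01 without WT replicate 1 and to 0.07 without KO replicate 2. It was −0.34 without KO replicate 1 and −0.28 without WT replicate 2. The member that rose was mt-Nd6, which lies on the other strand from the rest (64.1 and 66.9 CPM in WT and 83.3 and 77.7 CPM in KO libraries, log2 0.41, SE 0.09, adjusted p = 0.0027), and mt-Atp8 fell (64.8 and 52.9 CPM in WT and 38.8 and 35.7 CPM in KO libraries, log2 −0.55, SE 0.13, adjusted p = 0.00492). All mitochondrially encoded genes took 2.69% ± 0.444 of UMIs in WT and 2.399% ± 0.523 in KO (SD, n = 2 each). The libraries overlapped (exact permutation p = 0.67, with 0.33 the smallest possible, pools not paired). Within pools the difference, KO minus WT, was −0.235 points for replicate 1 and −0.348 points for replicate 2.

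Glycolysis genes were higher in KO. Of 19 tested, 14 rose and 3 fell (median log2 difference 0.85). Pkm, which encodes the enzyme of the last, ATP-yielding step, had 103 and 111 CPM in WT and 231 and 252 CPM in KO libraries (log2 1.28, SE 0.14, adjusted p = 2.22e-05). Pfkp, a subunit of phosphofructokinase, had 79.9 and 76.3 CPM in WT and 177 and 183 CPM in KO libraries (log2 1.31, SE 0.22, adjusted p = 0.000869), and Pgam1, phosphoglycerate mutase, 59.8 and 64.7 CPM in WT and 120.2 and 135 CPM in KO libraries (log2 1.14, SE 0.14, adjusted p = 4.13e-05). Both KO libraries lay above both WT libraries in each of these genes, with folds of means of 2.26, 2.3 and 2.05. Pdk1, a kinase that inhibits pyruvate dehydrogenase, moved the other way. It had 64.1 and 58.7 CPM in WT and 8.07 and 7.35 CPM in KO libraries (log2 −2.89, SE 0.09, adjusted p = 6.74e-09). The glucose transporter gene Slc2a1 had 16.8 and 18.8 CPM in WT and 13.5 and 14.9 CPM in KO libraries and Pfkfb3, which makes the activator of phosphofructokinase, 57.9 and 52.5 CPM in WT and 57.1 and 58.2 CPM in KO libraries, and neither passed the test (adjusted p = 0.16 and 0.174).

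Nutrient uptake and redox genes moved in part with glycolysis. Of 11 amino acid transporters 5 rose and 1 fell (median log2 difference 0.44, or 0.24 without WT replicate 1). Slc1a5, the glutamine transporter, had 65.0 and 71.5 CPM in WT and 166 and 199.5 CPM in KO libraries (log2 1.53, SE 0.11, adjusted p = 1.19e-06), Slc6a13, a transporter of GABA and taurine, 5.44 and 3.63 CPM in WT and 49.5 and 49.5 CPM in KO libraries (log2 3.57, SE 0.22, adjusted p = 3.45e-07), and Slc38a2, another glutamine carrier, fell from 150.5 and 153 to 62.5 and 80.5 CPM (log2 −0.98, SE 0.14, adjusted p = 0.00012). The fold of means was 10.9 for Slc6a13 and 2.68 for Slc1a5. Of 24 redox and metal genes 14 rose and 2 fell (median 0.47), with 4 falling without WT replicate 2 and 4 with the pool as a block. Gpx1, glutathione peroxidase, had 149 and 133 CPM in WT and 469 and 484 CPM in KO libraries (log2 1.87, SE 0.12, adjusted p = 3.38e-07), Glrx, glutaredoxin, 18.5 and 15.8 CPM in WT and 99.0 and 78.0 CPM in KO libraries (log2 2.48, SE 0.19, adjusted p = 3.18e-06), and Txn1, thioredoxin, 209.8 and 185 CPM in WT and 482 and 441 CPM in KO libraries (log2 1.34, SE 0.17, adjusted p = 5.83e-05). In all 3 genes the genotypes stood well apart, whereas Ftl1, the ferritin light chain, had 485 and 499.7 CPM in WT and 539.7 and 533 CPM in KO libraries (log2 0.23, SE 0.13, adjusted p = 0.165, 0.0257 with the block). Lipid genes showed no common direction, with 4 of 23 higher and 5 lower. Plin2, which coats lipid droplets, had 15.9 and 15.2 CPM in WT and 89.1 and 74.1 CPM in KO libraries (log2 2.50, SE 0.12, adjusted p = 8e-08) and Fabp5, a fatty acid carrier, 11.3 and 7.07 CPM in WT and 39.1 and 40.9 CPM in KO libraries (log2 2.24, SE 0.30, adjusted p = 0.000243), while Abcg1, a cholesterol exporter, fell from 43.5 and 53.7 to 26.8 and 29.7 CPM (log2 −0.67, SE 0.13, adjusted p = 0.00118).

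Chaperones of the endoplasmic reticulum (ER) were among the genes that rose in KO. Of 27 genes of heat shock and the unfolded protein response 15 rose and none fell (median log2 difference 0.99), and none was lower at an unadjusted p under 0.05 in edgeR's test or by DESeq2. With the pool as a block 16 rose and 2 fell. Sdf2l1, a partner of the ER chaperone BiP, had 47.5 and 48.9 CPM in WT and 265 and 285 CPM in KO libraries (log2 2.62, SE 0.22, adjusted p = 4.89e-06). Hsp90b1, the HSP90 of the ER, had 421 and 442 CPM in WT and 1306 and 1553 CPM in KO libraries (log2 1.84, SE 0.16, adjusted p = 4.31e-06), and Manf, a secreted ER stress protein, 176 and 179.7 CPM in WT and 560.5 and 604 CPM in KO libraries (log2 1.82, SE 0.17, adjusted p = 7.13e-06). The KO libraries lay above the WT libraries in each of these, with folds of means of 5.7, 3.31 and 3.27. Creld2, an ER disulphide isomerase, rose by 2.06 on the log2 scale. Hspa5, which encodes BiP itself, had 241 and 282 CPM in WT and 643 and 873 CPM in KO libraries (log2 1.64, SE 0.21, adjusted p = 8.88e-05) and Xbp1, the transcription factor of this response, 39.3 and 36.1 CPM in WT and 112 and 123 CPM in KO libraries (log2 1.75, SE 0.14, adjusted p = 2.58e-06), both named after their values were seen. The cytosolic chaperones Hspa8 and Hsp90ab1 had log2 differences of 0.43 and 0.42 and did not pass the test (adjusted p = 0.099 and 0.0695, the latter 0.043 with the block). Of 31 proteasome genes 19 rose and none fell (median 0.37), none also at an unadjusted p under 0.05 in edgeR's test or by DESeq2, and leaving out WT replicate 1, WT replicate 2 or KO replicate 2 left 10, 12 and 12 that rose. Psmd8, of the regulatory particle, had 107 and 107 CPM in WT and 211 and 227 CPM in KO libraries (log2 1.14, SE 0.10, adjusted p = 5.43e-06), and Psmb1, of the catalytic core, 303.3 and 306 CPM in WT and 347 and 338 CPM in KO libraries (log2 0.28, SE 0.11, adjusted p = 0.0525, 0.011 with the block).

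Genes of the cytoskeleton and of S100, annexin and galectin proteins took a larger share of the UMIs in KO. Of 39 tested 34 rose and 3 fell (median log2 difference 1.37), and together with the 2 members not tested they summed to 36869 to 37978 CPM in WT and 66120 to 72913 CPM in KO. S100a6, a calcium-binding protein, had 812 and 629 CPM in WT and 5542 and 5151 CPM in KO libraries (log2 3.0, SE 0.34, adjusted p = 6.02e-05), Lgals1, encoding galectin-1, 567 and 441 CPM in WT and 3834 and 3556 CPM in KO libraries (log2 2.98, SE 0.17, adjusted p = 2.15e-07), and Capg, an actin-capping protein, 49.6 and 40.9 CPM in WT and 634 and 628 CPM in KO libraries (log2 3.91, SE 0.18, adjusted p = 4.97e-08). The KO libraries were above the WT libraries in each, with folds of means of 7.42, 7.33 and 13.9. Tmsb4x, which encodes the actin-binding thymosin β4, gained the most CPM of all genes (14170 and 13438 CPM in WT and 23867 and 19586 CPM in KO libraries, log2 0.76, SE 0.23, adjusted p = 0.0151), and leaving out WT replicate 1, WT replicate 2 or KO replicate 1 gave an adjusted p of 0.076, 0.0958 and 0.127. Its relative Tmsb10 fell, from 4717 and 5084 to 2935 and 2694 CPM (log2 −0.69, SE 0.15, adjusted p = 0.00268). Actb, S100a10 and S100a11 were among the 10 genes with the largest gains too, and rose by 0.68, 2.09 and 2.27 on the log2 scale. Anxa1, encoding annexin A1, had 8.32 and 6.01 CPM in WT and 53.1 and 53.2 CPM in KO libraries (log2 3.01, SE 0.35, adjusted p = 0.000112).

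Adhesion and homing genes changed in both directions. Of 17 integrin genes 6 rose and 5 fell, near the shares over all genes tested (26.3% and 25.9%). Itgb1, the β1 chain, had 194 and 182 CPM in WT and 921 and 993 CPM in KO libraries (log2 2.46, SE 0.16, adjusted p = 5.23e-07) and Itga5, which pairs with it as the fibronectin receptor, 10.3 and 8.18 CPM in WT and 68.8 and 90.9 CPM in KO libraries (log2 3.22, SE 0.19, adjusted p = 3.39e-07), while Itga4, the α4 chain of the receptor for VCAM-1, had 682 and 721 CPM in WT and 70.3 and 152 CPM in KO libraries (log2 −2.55, SE 0.36, adjusted p = 0.000394). Itgb5, a partner of the αv chain, rose from 5.16 and 4.32 to 136 and 171 CPM (log2 5.14, SE 0.51, adjusted p = 4.98e-05), and Itgb2, the common chain of leukocyte integrins, had 163 and 166 CPM in WT and 170.3 and 153 CPM in KO libraries (log2 0.09, SE 0.23, adjusted p = 0.779). Of 27 chemokine and egress receptors 11 rose and 10 fell. Ccr7, the receptor for lymph node chemokines, had 52.4 and 56.0 CPM in WT and 2.88 and 2.14 CPM in KO libraries (log2 −4.33, SE 0.19, adjusted p = 3.34e-08). Ccr9, the receptor for the gut chemokine CCL25, had 171 and 159.9 CPM in WT and 7.07 and 5.99 CPM in KO libraries (log2 −4.56, SE 0.19, adjusted p = 2.15e-08). The KO libraries lay below the WT libraries in both, with ratios of means, WT over KO, of 21.6 and 25.4. Among those that rose, Cxcr6 had 175 and 175 CPM in WT and 1596 and 1512 CPM in KO libraries (log2 3.26, SE 0.42, adjusted p = 0.000222) and Ccr1 1.14 and 1.14 CPM in WT and 64.9 and 67.8 CPM in KO libraries (log2 5.97, SE 0.54, adjusted p = 2.78e-05). S1pr1, which guides exit from lymphoid organs, had 269.9 and 295 CPM in WT and 152 and 165 CPM in KO libraries (log2 −0.73, SE 0.35, adjusted p = 0.119).

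**Figure D3:**
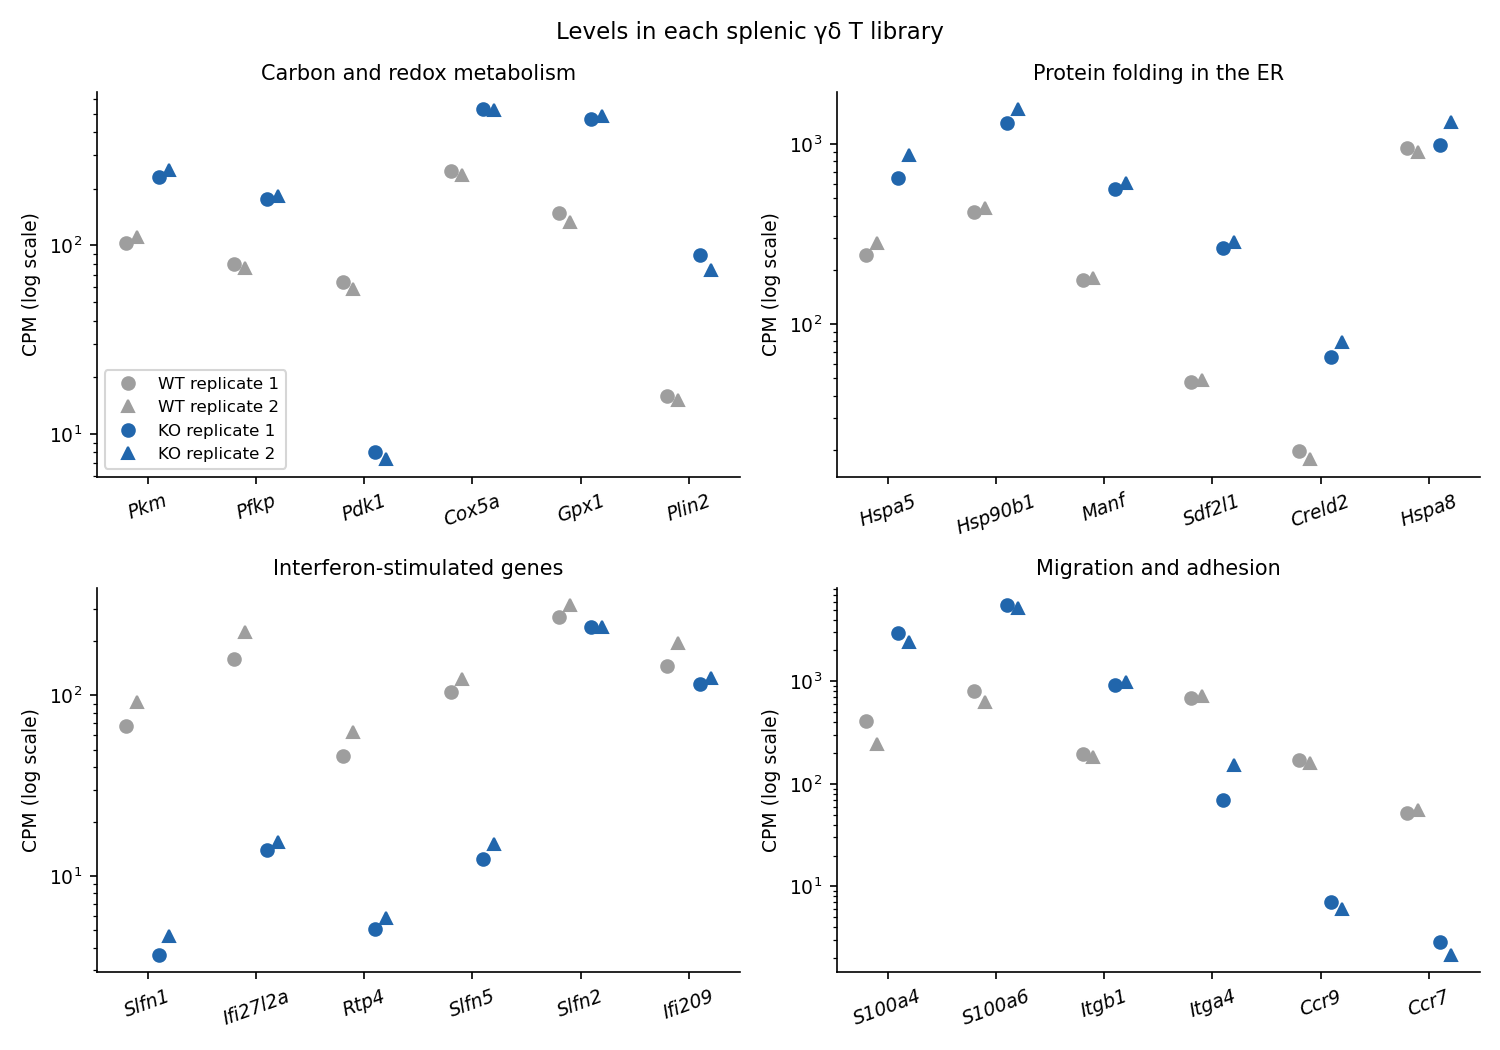
Levels in CPM on a log axis of selected genes in each of the 4 splenic γδ T libraries (grey WT, blue KO; circle replicate 1, triangle replicate 2), in 4 panels by function. KO lies above WT for the ER chaperones Hsp90b1 and Sdf2l1 and below it for Pdk1, Slfn1, Rtp4 and Ccr7, and the libraries lie close together for Hspa8 and Slfn2.

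Interferon-stimulated genes fell. Of 52 tested 41 fell and 2 rose (median log2 difference −1.71), and over the alternatives 36 to 43 fell and 1 to 3 rose. Slfn1, a schlafen gene, had 67.5 and 92.3 CPM in WT and 3.65 and 4.63 CPM in KO libraries (log2 −4.15, SE 0.58, adjusted p = 0.000419). Ifi27l2a had 159 and 226 CPM in WT and 13.9 and 15.5 CPM in KO libraries (log2 −3.60, SE 0.34, adjusted p = 3.34e-05), and Rtp4, which restrains viral replication, 46.1 and 62.4 CPM in WT and 5.06 and 5.86 CPM in KO libraries (log2 −3.20, SE 0.18, adjusted p = 1.89e-07). The KO libraries lay below the WT libraries in each, with ratios of means, WT over KO, of 19.3, 13 and 9.94. Isg15, a ubiquitin-like modifier chosen after its values were seen, had 39.4 and 58.7 CPM in WT and 12.5 and 12.1 CPM in KO libraries (log2 −1.89, SE 0.17, adjusted p = 4.58e-06). Slfn2, which was not called, had 272 and 316 CPM in WT and 239.6 and 239 CPM in KO libraries (log2 −0.19, SE 0.19, adjusted p = 0.435). The members that rose, named after their values were seen, were Ifi204 (log2 4.93) and Igtp (log2 0.60). MHC class I genes, many of which also respond to interferon, had no common direction. Of 20 tested 6 rose and 4 fell, near the shares over all genes tested (26.3% and 25.9%). Their median log2 difference was −0.01, and −0.14 to 0.05 over the alternatives. H2-D1 had 1219.9 and 1338 CPM in WT and 2181 and 2304 CPM in KO libraries (log2 0.92, SE 0.15, adjusted p = 0.000357) and B2m, the light chain of class I molecules, 1819 and 1815 CPM in WT and 2733 and 2528 CPM in KO libraries (log2 0.64, SE 0.12, adjusted p = 0.00108), whereas Psme1, an interferon-induced activator of the proteasome, had 302.8 and 349 CPM in WT and 219 and 208 CPM in KO libraries (log2 −0.50, SE 0.13, adjusted p = 0.00636), with an adjusted p of 0.063 without WT replicate 2 and 0.0514 without KO replicate 2.

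Receptor and signalling genes of the T cell changed in both directions. Reads can be split among the variable segments of the γ and δ chains, which share sequence, so their values are uncertain to that extent. Trdv4, a δ chain segment used with Trgv6, had 38.1 and 36.1 CPM in WT and 526 and 520.3 CPM in KO libraries (log2 3.93, SE 0.14, adjusted p = 1.08e-08), and 8 of the 10 δ chain genes tested fell. The δ constant gene Trdc had 1359 and 1485 CPM in WT and 1817 and 2051 CPM in KO libraries (log2 0.55, SE 0.16, adjusted p = 0.0129), with an adjusted p of 0.096 without WT replicate 1 and 0.0839 without KO replicate 2. Of 39 genes of proximal receptor signalling 20 fell and 10 rose (median log2 difference −0.44). Lck, the kinase that phosphorylates CD3 chains, had 475 and 557 CPM in WT and 19.1 and 21.7 CPM in KO libraries (log2 −4.55, SE 0.21, adjusted p = 6.28e-08). Blk, a kinase of the same family, is not among these 39 genes and is counted under the γδT17 regulators. It had 104 and 86.2 CPM in WT and 1204 and 1311 CPM in KO libraries (log2 3.83, SE 0.27, adjusted p = 2.12e-06). Lck and Blk thus stood in opposite order, with ratios of means of 25.3 (WT over KO) and 13.2 (KO over WT). Ubash3a, a phosphatase that damps receptor signals, had 60.8 and 67.9 CPM in WT and 2.33 and 2.10 CPM in KO libraries (log2 −4.76, SE 0.14, adjusted p = 6.74e-09), Vav3, an exchange factor, 92.2 and 87.0 CPM in WT and 4.04 and 2.69 CPM in KO libraries (log2 −4.64, SE 0.27, adjusted p = 6.92e-07) and the CD3 chain gene Cd3d 689 and 756 CPM in WT and 666 and 626 CPM in KO libraries (log2 −0.05, SE 0.14, adjusted p = 0.784).

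NK-type receptors were lower in the KO libraries: of 24 tested 19 fell and 4 rose (median log2 difference −3.07). Klrd1, the CD94 chain that pairs with NKG2 receptors, had 299 and 363 CPM in WT and 21.6 and 22.3 CPM in KO libraries (log2 −3.81, SE 0.54, adjusted p = 0.000461), and Klre1, an inhibitory or activating receptor of the same gene complex, 46.4 and 51.9 CPM in WT and 3.63 and 3.60 CPM in KO libraries (log2 −3.66, SE 0.37, adjusted p = 3.93e-05). Klrb1b went against the list with 7.44 and 6.01 CPM in WT and 156 and 141 CPM in KO libraries (log2 4.58, SE 0.47, adjusted p = 5.91e-05), and Klrc1, encoding NKG2A, had 77.6 and 95.9 CPM in WT and 53.4 and 46.4 CPM in KO libraries (log2 −0.69, SE 0.39, adjusted p = 0.174, 0.0296 with the block). Of 18 cytotoxic granule genes 9 fell and 5 rose. Gzmb, granzyme B, rose from 8.91 and 6.84 to 199 and 176 CPM (log2 4.69, SE 0.22, adjusted p = 1.63e-07), and Nkg7, a granule membrane protein, fell from 564 and 604 to 121 and 65.3 CPM (log2 −2.54, SE 0.29, adjusted p = 8.17e-05). Of 25 scavenger and surface markers 15 fell and 6 rose. Cd28, the costimulatory receptor, had 137 and 152 CPM in WT and 4.46 and 6.32 CPM in KO libraries (log2 −4.62, SE 0.30, adjusted p = 2.12e-06), Cd27, which marks interferon-γ-producing γδ T cells, 281 and 331 CPM in WT and 12.05 and 16.3 CPM in KO libraries (log2 −4.32, SE 0.21, adjusted p = 1.19e-07), and Ly6c2, a surface protein of memory-type cells, 312 and 293 CPM in WT and 14.8 and 11.3 CPM in KO libraries (log2 −4.43, SE 0.52, adjusted p = 0.000131). The ratios of means, WT over KO, were 26.8, 21.6 and 23.2.

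Cytokines, their receptors and checkpoint genes changed in both directions. Of 23 cytokine genes 8 rose and 7 fell, near the shares over all genes tested (26.3% and 25.9%). Csf2, encoding GM-CSF, had 3.54 and 3.49 CPM in WT and 43.4 and 32.8 CPM in KO libraries (log2 3.55, SE 0.42, adjusted p = 0.000144), while Xcl1, a chemokine for cross-presenting dendritic cells, had 92.5 and 98.6 CPM in WT and 3.82 and 5.37 CPM in KO libraries (log2 −4.26, SE 0.38, adjusted p = 2.46e-05) and Ccl5 2131 and 2304 CPM in WT and 146 and 130.2 CPM in KO libraries (log2 −3.90, SE 0.25, adjusted p = 7.95e-07). Ltb, lymphotoxin β, had 723 and 762 CPM in WT and 1037 and 939 CPM in KO libraries, which did not overlap but did not pass the test (log2 0.52, SE 0.26, adjusted p = 0.127). Of 30 cytokine receptor genes 10 rose and 13 fell. Il1r1, the receptor for IL-1, rose from 37.0 and 28.8 to 492 and 499 CPM (log2 4.03, SE 0.55, adjusted p = 0.000359) and Il2ra, the high-affinity chain for IL-2, from 25.3 and 21.4 to 169 and 158 CPM (log2 2.92, SE 0.26, adjusted p = 1.19e-05), and Il6st, the shared chain of IL-6 family receptors, fell from 117 and 123 to 5.34 and 4.79 CPM (log2 −4.46, SE 0.15, adjusted p = 9.23e-09). Of 16 checkpoint receptors 5 rose and 10 fell. Havcr2, encoding TIM-3, rose from 2.47 and 2.28 to 95.7 and 123 CPM (log2 5.63, SE 0.36, adjusted p = 3.23e-06) and Icos from 40.0 and 39.6 to 296 and 323 CPM (log2 3.07, SE 0.40, adjusted p = 0.000243), and Btla fell from 51.4 and 52.8 to 2.39 and 1.74 CPM (log2 −4.56, SE 0.15, adjusted p = 8.05e-09). The death receptor gene Tnfrsf25 rose by 3.02 on the log2 scale, among 6 of 15 TNF receptor genes that rose and 6 that fell.

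Among regulators of transcription, those of γδT17 cells mostly rose and those of type 1 and naive-type cells mostly fell. Of 18 γδT17 regulators 13 rose and 3 fell (median log2 difference 1.96), and of 26 regulators of type 1 and naive-type cells 3 rose, 6 with the pool as a block, and 17 fell (median −1.38). These lists rest on genes known to mark the subsets whose shares differ, so their direction is no independent evidence. Among the γδT17 regulators, Maf had 120.0 and 98.7 CPM in WT and 1365 and 1425 CPM in KO libraries (log2 3.78, SE 0.29, adjusted p = 3.95e-06), whereas Sox4, on the same list, had 74.2 and 82.1 CPM in WT and 2.56 and 3.99 CPM in KO libraries (log2 −4.45, SE 0.27, adjusted p = 7.02e-07). Of the other list, Eomes, of cytotoxic cells, had 61.5 and 80.5 CPM in WT and 3.14 and 4.68 CPM in KO libraries (log2 −4.07, SE 0.37, adjusted p = 2.08e-05) and Lef1, of naive-type cells, 716 and 719 CPM in WT and 50.9 and 52.7 CPM in KO libraries (log2 −3.68, SE 0.19, adjusted p = 9.89e-08). The genotypes did not overlap in these 4 genes. The inhibitors of E proteins went in opposite directions, with 253 and 199.6 CPM in WT and 1394 and 1019 CPM in KO libraries for Id2 (log2 2.53, SE 0.34, adjusted p = 0.000222) and 225 and 282 CPM in WT and 11.2 and 15.3 CPM in KO libraries for Id3 (log2 −4.15, SE 0.27, adjusted p = 1.73e-06). Ikzf1, encoding Ikaros, had 879 and 837 CPM in WT and 224 and 229 CPM in KO libraries (log2 −1.81, SE 0.11, adjusted p = 3.24e-07), and Runx2 had 174 and 167 CPM in WT and 507 and 472 CPM in KO libraries (log2 1.63, SE 0.29, adjusted p = 0.00123). Of 17 genes for GFI1 and its repressor partners 5 rose and 2 fell, with 1 falling without KO replicate 1 and 0 without WT replicate 1, without KO replicate 2 or without the filter on low counts. Ehmt2, the G9a methyltransferase, had 30.6 and 30.1 CPM in WT and 48.4 and 56.4 CPM in KO libraries (log2 0.90, SE 0.09, adjusted p = 1.15e-05) and Rcor3, a CoREST protein, 16.4 and 13.9 CPM in WT and 32.3 and 43.6 CPM in KO libraries (log2 1.44, SE 0.17, adjusted p = 4.88e-05). Rcor1 and Hdac1 did not pass the test (log2 −0.04 and −0.08, adjusted p = 0.754 and 0.502).

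Genes of signal feedback and early response were mixed. Of 19 genes of cytokine signal feedback 5 rose and 10 fell. Of 37 immediate early genes 11 rose and 10 fell, near the shares over all genes tested (26.3% and 25.9%). Socs2 and Cish, which are induced by STAT5 and restrain it, had 8.62 and 8.22 CPM in WT and 99.5 and 118 CPM in KO libraries (log2 3.80, SE 0.19, adjusted p = 1.25e-07) and 13.1 and 12.2 CPM in WT and 85.4 and 71.7 CPM in KO libraries (log2 2.75, SE 0.27, adjusted p = 3.68e-05). Spred2, a brake on the MAP kinase path, fell from 57.6 and 48.8 to 19.7 and 13.2 CPM (log2 −1.59, SE 0.16, adjusted p = 1.49e-05). The paralogs Zfp36l1 and Zfp36l2, whose proteins mark mRNAs for decay, went in opposite directions: Zfp36l1 rose from 237 and 242 to 509 and 540.2 CPM (log2 1.24, SE 0.16, adjusted p = 5.92e-05) and Zfp36l2 fell from 246 and 219 to 89.3 and 78.7 CPM (log2 −1.36, SE 0.11, adjusted p = 2.85e-06). Jund, an AP-1 subunit, had 354 and 385 CPM in WT and 812 and 869.9 CPM in KO libraries (log2 1.30, SE 0.13, adjusted p = 1.01e-05).

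Among survival genes, Bcl2 and its A1 relatives went in opposite directions. Of 30 genes of the BCL2 family and the p53 response 21 rose and 5 fell (median log2 difference 0.70). Bcl2 had 446 and 458 CPM in WT and 59.0 and 34.1 CPM in KO libraries (log2 −3.17, SE 0.26, adjusted p = 6.31e-06), whereas Bcl2a1b had 32.7 and 25.02 CPM in WT and 199 and 181 CPM in KO libraries (log2 2.83, SE 0.39, adjusted p = 0.00035) and Bcl2a1d 10.9 and 7.43 CPM in WT and 105 and 95.6 CPM in KO libraries (log2 3.57, SE 0.45, adjusted p = 0.000198). The Bcl2a1 genes are near-identical copies, so reads may be split among them, and Bcl2a1a rose too, by 4.21 on the log2 scale. Mcl1, another antiapoptotic member, had 236 and 254 CPM in WT and 198 and 241 CPM in KO libraries (log2 −0.05, SE 0.12, adjusted p = 0.746). The cell cycle inhibitor Cdkn1a, named after its values were seen, rose from 1.19 and 0.857 to 9.70 and 6.37 CPM (log2 3.10, SE 0.30, adjusted p = 1.6e-05). Of 30 S phase genes 6 rose and 5 fell, but 1 rose and 8 fell without WT replicate 2, 3 rose without KO replicate 1, 2 rose and 3 fell without KO replicate 2, and 3 fell without WT replicate 1. Of 30 G2 and M phase genes 2 rose and 15 fell (median −0.76, or −0.40 without WT replicate 1), 9 without WT replicate 1, 9 without KO replicate 2 and 9 without the filter on low counts. The proliferation marker Mki67 had 27.1 and 18.1 CPM in WT and 33.5 and 24.2 CPM in KO libraries (log2 0.47, SE 0.22, adjusted p = 0.0984, 0.0277 with the block, and 0.0266 and 0.038 when WT replicate 1 or KO replicate 2 was left out), and the S phase helicase gene Mcm7 39.1 and 36.6 CPM in WT and 19.2 and 17.96 CPM in KO libraries (log2 −0.92, SE 0.16, adjusted p = 0.000685).

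The comparison within Trgv6-called cells asks what differs between the genotypes among cells with the same leading γ chain gene. A call can rest on 1 UMI, and WT and KO cells of a pool went through the same droplet run. How many of the WT calls are cells with another receptor, or rest on free Trgv6 RNA, was not tested. Of 7 δ chain genes 4 fell in KO (median log2 difference −3.21), and of 13 NK-type receptors 4 fell and 1 rose (median −0.88). These counts depended on single libraries: leaving out KO replicate 1, WT replicate 2 or KO replicate 2 gave no δ chain gene that fell, with medians of −0.01, 0.02 and −0.10 over the 3 to 5 tested, and leaving out WT replicate 1 gave 2. Of the NK-type receptors 7 fell without WT replicate 1, 1 without KO replicate 1 and 0 without KO replicate 2, and the median was 0.08 without WT replicate 2. Cd8b1, the β chain of CD8, chosen after its values were seen, had 21.3 and 31.3 CPM in WT and 1.48 and 2.38 CPM in KO libraries (log2 −3.79, SE 0.35, adjusted p = 7.51e-06). Where a cell needed at least 2 Trgv6 UMIs and no UMI of another γ chain variable gene, 58 and 52 WT cells and 1230 and 1569 KO cells remained, and the medians were −0.20 over 3 δ chain genes and 0.11 over 10 NK-type receptors. Under the broader rule the cells held 1174305 and 1405732 UMIs in the WT libraries and 21567598 and 28551750 in the KO libraries, so the WT values rest on far fewer cells, and 12625 genes were tested. Of these 662 (5.24%) rose and 865 (6.85%) fell in KO. The counts depended on the libraries, with 1527 genes in all and 2193 without WT replicate 1, 977 without WT replicate 2, 587 without KO replicate 1 and 572 without KO replicate 2, and 611 under the stricter rule. Of the splenic differences above, some lists held few calls here. Of 76 nuclear respiratory genes 1 rose and 1 fell (median log2 difference −0.02, and −0.10 to 0.13 when a library was left out), with 9 rising without WT replicate 1. Of 31 proteasome genes none was called by edgeR's test or by DESeq2, and 0 had an unadjusted p under 0.05. Of 39 cytoskeletal and S100 genes 2 rose and 2 fell (median 0.20, and 0.06 to 0.46 when a library was left out), with 6 rising under the block, 17 without WT replicate 1 and 0 without KO replicate 1. S100a6 had 5569 and 3586 CPM in WT and 5579 and 5124 CPM in KO libraries within these cells (log2 0.18, SE 0.21, adjusted p = 0.676), and WT replicate 1 lay between the KO libraries while WT replicate 2 lay below them. Psmd8 had 193 and 166 CPM in WT and 212 and 223 CPM in KO libraries (log2 0.24, SE 0.14, adjusted p = 0.32) and Cox5a 444 and 371 CPM in WT and 523 and 512 CPM in KO libraries (log2 0.31, SE 0.14, adjusted p = 0.198), the latter with an adjusted p of 0.0195 without WT replicate 1.

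In Trgv6-called cells the ribosomal genes had median log2 differences of −0.40 for the large and −0.43 for the small subunit. Their summed CPM, which carry no TMM scaling, fell less than in all cells. The large subunit had 104260 and 106620 in WT and 86085 and 78034 in KO, against 118550 and 115750 and 88494 and 79503 in all cells. The small subunit had 90538 and 93342 in WT and 73031 and 66555 in KO, against 107090 and 104340 and 75433 and 67938. Within Trgv6-called cells 15 of 47 and 11 of 32 fell and none rose, against 32 and 24 with the pool as a block. Leaving out WT replicate 1 gave 4 and 4, KO replicate 1 gave 8 and 6, WT replicate 2 gave 2 and 1, and KO replicate 2 gave 0 of either, and the stricter rule gave 12 and 10. At an unadjusted p under 0.05 in edgeR's test 38 and 28 were lower and none higher, and DESeq2 called 26 and 19 lower. Rpl12 had 2572 and 2957 CPM in WT and 2074 and 1834 CPM in KO libraries (log2 −0.54, SE 0.15, adjusted p = 0.028), with an adjusted p of 0.184 without WT replicate 2 and 0.245 without KO replicate 2. Interferon-stimulated genes fell in 15 of 44 and rose in 2 (median −0.43, or −0.21 without WT replicate 2), and 10 of 49 fell without WT replicate 2, 7 without KO replicate 1, 7 without KO replicate 2 and 8 of 41 under the stricter rule. Ifi27l2a had 59.6 and 79.0 CPM in WT and 12.7 and 13.8 CPM in KO libraries (log2 −2.43, SE 0.17, adjusted p = 7.84e-07) and Slfn5 47.7 and 66.9 CPM in WT and 11.8 and 13.2 CPM in KO libraries (log2 −2.25, SE 0.19, adjusted p = 3.7e-06). Isg15, by contrast, had 16.2 and 20.6 CPM in WT and 14.0 and 12.4 CPM in KO libraries (log2 −0.53, SE 0.25, adjusted p = 0.206). Of 26 heat shock and unfolded protein genes 10 rose and none fell (median 0.42), and leaving out KO replicate 1, WT replicate 2 or KO replicate 2 left 5, 4 and 2 that rose, and the stricter rule 1 of 25. None was lower at an unadjusted p under 0.05 in edgeR's test or by DESeq2. Sdf2l1 had 141 and 152 CPM in WT and 266 and 275 CPM in KO libraries (log2 0.84, SE 0.13, adjusted p = 0.000579), and Hspa5 445 and 426 CPM in WT and 642 and 862 CPM in KO libraries (log2 0.74, SE 0.15, adjusted p = 0.00431), with an adjusted p of 0.146 without KO replicate 2.

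**Figure D4:**
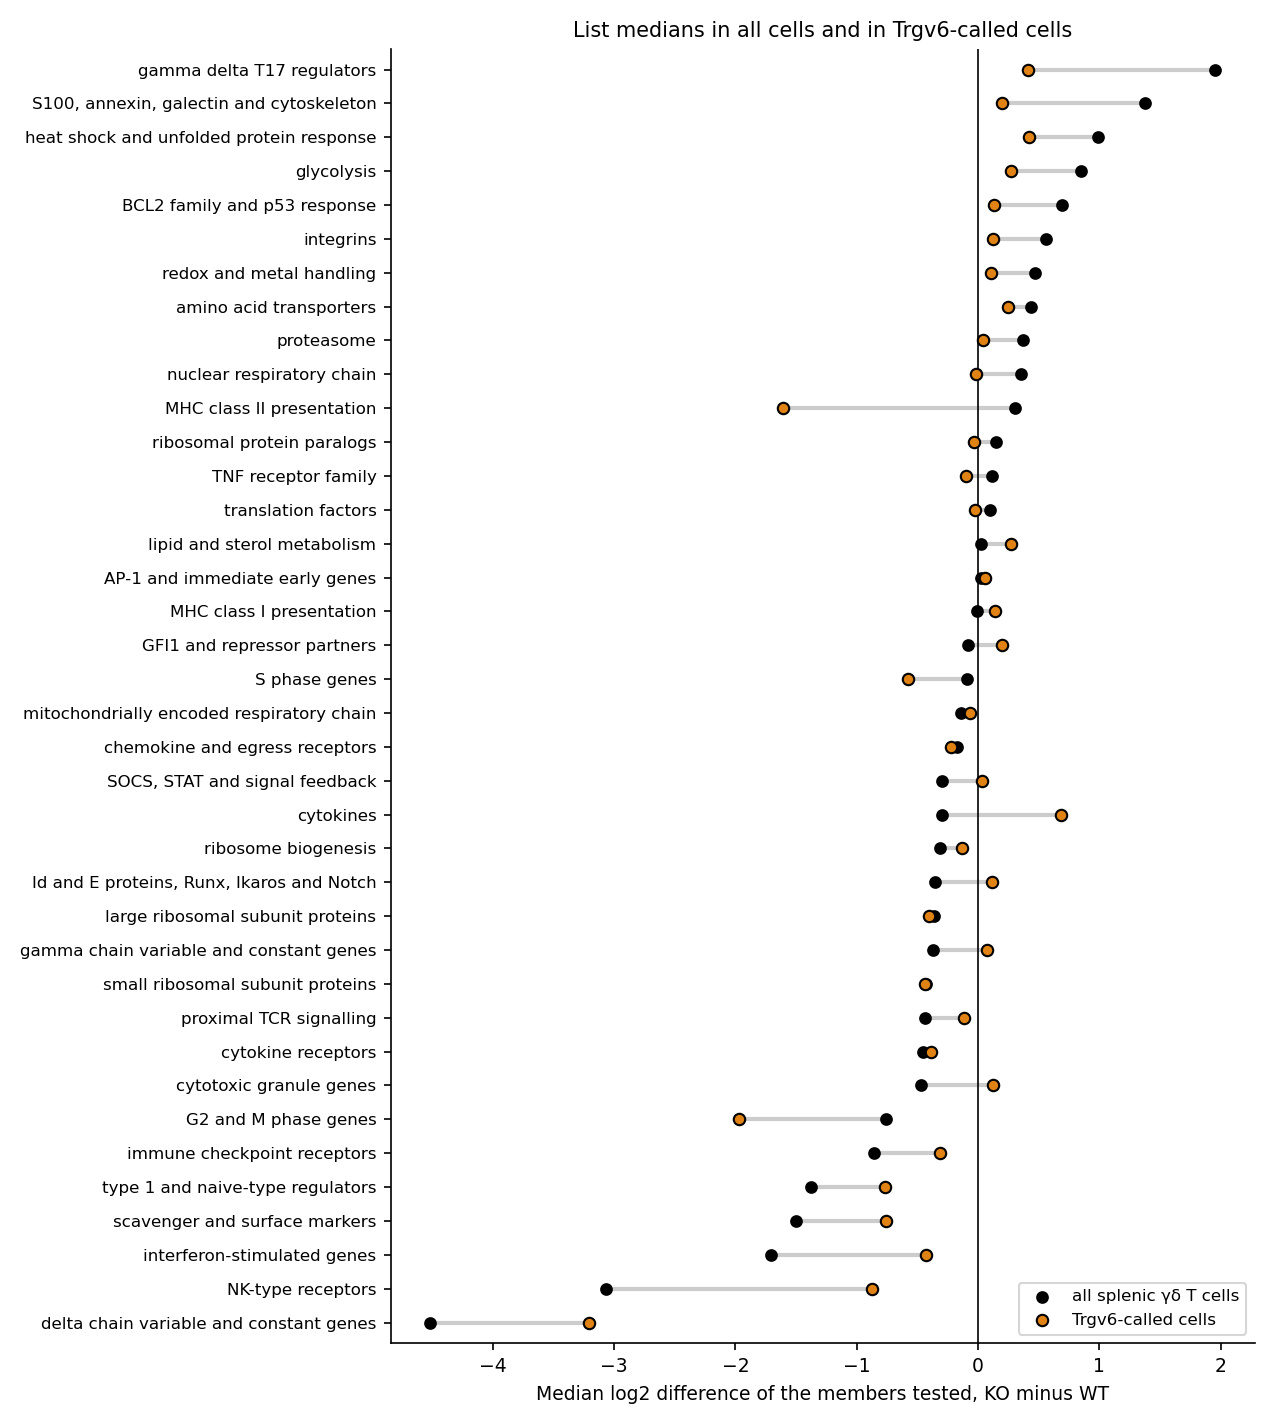
Median log2 difference KO minus WT of the members of each gene list, in all splenic γδ T cells (black) and within Trgv6-called cells (orange), over the members tested in each. The medians of the ribosomal lists lie almost on each other (−0.36 and −0.40 for the large subunit, −0.43 and −0.43 for the small), those of the S100 and cytoskeletal list lie at 1.37 and 0.20, and that of the G2 and M phase list is lower in Trgv6-called cells (−1.97) than in all cells (−0.76). Each comparison was scaled on its own, and the summed CPM of the ribosomal genes fell less in Trgv6-called cells.

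Most G2 and M phase genes, and some S phase genes, fell in Trgv6-called cells. Of 30 G2 and M phase genes 23 fell and none rose (median log2 difference −1.97), none also at an unadjusted p under 0.05 in edgeR's test or by DESeq2. This count was 14 of 25 tested without KO replicate 1, 12 of 25 without KO replicate 2, 19 of 28 under the stricter rule, and 12 to 23 over all alternatives. Mki67 had 98.8 and 78.3 CPM in WT and 33.5 and 25.9 CPM in KO libraries (log2 −1.61, SE 0.19, adjusted p = 0.000203). Ube2c, which hands ubiquitin to mitotic substrates, had 63.0 and 47.0 CPM in WT and 8.95 and 6.16 CPM in KO libraries (log2 −2.90, SE 0.25, adjusted p = 1.27e-05), and cyclin B2 (Ccnb2) 27.2 and 20.6 CPM in WT and 3.52 and 1.86 CPM in KO libraries (log2 −3.20, SE 0.38, adjusted p = 0.000106). Both WT libraries lay above both KO libraries in these 3 genes, which were chosen after their values were seen, and in Cenpa, the centromeric histone (log2 −1.32, SE 0.15, adjusted p = 5.29e-05). Hmgb2, a chromatin protein of dividing cells, had 967 and 786 CPM in WT and 418 and 368 CPM in KO libraries (log2 −1.20, SE 0.15, adjusted p = 0.000126). Of 30 S phase genes 8 fell, 3 without KO replicate 1 and 2 without KO replicate 2, and none rose, also at an unadjusted p under 0.05 in edgeR's test or by DESeq2. Among them was Mcm3 (45.1 and 35.6 CPM in WT and 21.2 and 20.1 CPM in KO libraries, log2 −0.99, SE 0.19, adjusted p = 0.00275). Mki67 and Hmgb2 did not pass the test in the whole pool, and the difference between both comparisons was not tested, since the cells overlap.

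**Figure D5:**
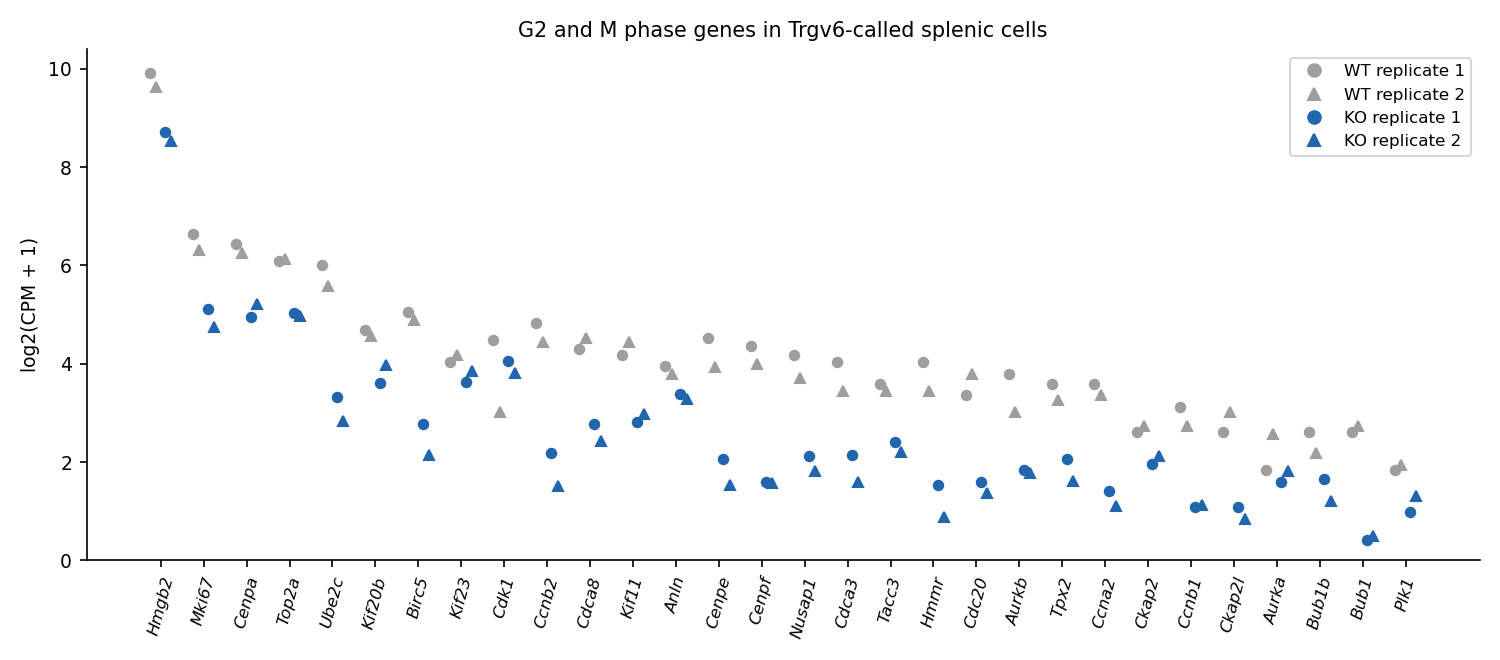
Levels of the 30 G2 and M phase genes in Trgv6-called splenic cells, as log2(CPM + 1), for each library (grey WT, blue KO; circle replicate 1, triangle replicate 2), in order of mean level. The WT libraries lie above the KO libraries for nearly all genes, as in Mki67, at 98.8 and 78.3 CPM in WT against 33.5 and 25.9 CPM in KO. They overlap for Cdk1.

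Some genes differed strongly within Trgv6-called cells and kept their call in each of the 8 alternatives of that comparison. Pdk1 had 27.2 and 37.7 CPM in WT and 6.40 and 6.55 CPM in KO libraries (log2 −2.38, SE 0.24, adjusted p = 1.5e-05), Gzmb 31.5 and 14.2 CPM in WT and 198 and 168 CPM in KO libraries (log2 3.0, SE 0.27, adjusted p = 8.64e-05) and Ccr1 10.2 and 1.42 CPM in WT and 66.4 and 65.5 CPM in KO libraries (log2 3.56, SE 0.38, adjusted p = 0.000238). Pdk1 was lower and the other two higher in both KO libraries. Klrb1b, Icos, Cish and Itgb5 rose by 1.80, 1.42, 2.17 and 2.14 on the log2 scale, and Xcl1, Ccr7 and Ubash3a changed by −2.42, −3.84 and −4.22. Trdc, the constant gene of the δ chain, did not pass the test in these cells (log2 −0.04, adjusted p = 0.919). The glycolysis list had 4 genes higher and 2 lower of 19 (median 0.27, or 0.13 without WT replicate 2), with none higher without KO replicate 1, without KO replicate 2 or under the stricter rule and 7 higher without WT replicate 1. Pkm had 175 and 137 CPM in WT and 232 and 249 CPM in KO libraries (log2 0.59, SE 0.15, adjusted p = 0.0151), and leaving out KO replicate 1, WT replicate 2 or KO replicate 2 gave an adjusted p of 0.134, 0.102 and 0.162.

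Thymic γδ T cells of the same genotypes (29207 cells in 4 libraries) were set beside the spleen to see where the splenic differences were its own. The thymic libraries held 739 to 1027 CPM of Xist and the splenic ones up to 0.374 CPM, and Ddx3y had 24.3 to 35.8 CPM in the thymic and 82.2 to 100.3 CPM in the splenic libraries, so the libraries differed in sex-linked transcripts and compartment and sex of the animals cannot be told apart. The difference of the log2 effects (spleen minus thymus) passed the test for 2341 genes on the higher side (13%) and 2566 on the lower side (14.2%). The ribosomal share of UMIs was 19.2% ± 0.0303 in WT and 19.3% ± 0.00948 in KO thymic libraries (SD, n = 2 each). The genes of the large and small subunit had median log2 differences of 0.05 and 0.10 in thymus. By the test of the difference, 8 of 47 and 9 of 32 had a lower effect in spleen and none a higher one, also at an unadjusted p under 0.05, with 30 and 25 under the block, 32 and 26 when the 8 γδ T libraries were fitted alone and 23 and 20 when scaled by library size alone. Rps24 had 4565 and 4498 CPM in WT and 5316 and 5419.9 CPM in KO libraries in thymus (difference of effects log2 −0.996, SE 0.23, adjusted p = 0.00907), and Rpl12 2744 and 2736 CPM in WT and 3041 and 3113 CPM in KO libraries (log2 −1.01, SE 0.19, adjusted p = 0.00295). In both genes the thymic KO libraries lay above the WT libraries and the splenic KO libraries below.

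Interferon-stimulated genes differed between the compartments, with 44 of 52 lower in effect in spleen and none higher (median log2 difference −1.71 in spleen and 0.56 in thymus). Rtp4 had 47.0 and 49.7 CPM in WT and 55.9 and 65.6 CPM in KO libraries in thymus (difference of effects log2 −3.62, SE 0.23, adjusted p = 7.95e-06), so that the thymic KO libraries lay above the WT libraries and the splenic ones below. The nuclear respiratory list had 39 of 76 genes with a higher effect in spleen and none lower, 61 with the block (medians 0.36 and −0.17), the proteasome list 27 of 31 (medians 0.37 and −0.27), and the S100 and cytoskeletal list 21 of 39 (medians 1.37 and 0.49). Cox5a had 472 and 521 CPM in WT and 421 and 445 CPM in KO libraries in thymus (log2 1.34, SE 0.18, adjusted p = 0.000435), and Lgals1 418 and 480.0 CPM in WT and 999 and 1013 CPM in KO libraries (log2 1.74, SE 0.23, adjusted p = 0.000383). Cell cycle genes had lower differences in thymus (medians −1.59 and −1.98 for S phase and for G2 and M phase genes, against −0.09 and −0.76 in spleen, where leaving out a library gave −0.25 to −0.01 and −1.095 to −0.40), with 26 of 30 S phase genes and 18 of 30 G2 and M phase genes higher in effect in spleen. Mki67 had 281 and 329 CPM in WT and 75.6 and 59.5 CPM in KO libraries in thymus (log2 2.57, SE 0.31, adjusted p = 0.000337).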

How the data were processed

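The authors deposited counts, UMIs per gene and barcode, for each demultiplexed library; per the labels and submitters' processing notes these were made with Cell Ranger 8.0.1 on GRCm39, and per the study's methods genotypes were separated by hashtag with hashsolo. From the deposited counts, cells with at least 500 UMIs and at most 20% mitochondrial counts were kept, and the counts of all listed genes were summed per library. Ribosomal, mitochondrial and Gm genes, which the study left out, were kept. No doublet caller was run here. The 12 libraries (3 compartments, 2 genotypes, 2 pools) were fitted together with edgeR 4.0.16 in R 4.3.3 (quasi-likelihood test, TMM scaling, filter on low counts by group, Benjamini-Hochberg adjustment over all genes tested), so the spread is shared over compartments. Log2 differences carry TMM scaling, and CPM values do not. The SE printed with edgeR's log2 differences is back-calculated, as the absolute log2 difference over the square root of the F statistic. A cell was Trgv6-called when Trgv6 held the most UMIs of its γ chain variable genes, and these cells were fitted over the 4 splenic libraries alone. Shares of UMIs were compared with exact permutation tests. DESeq2 1.42.0 and the other alternatives in the closing section were fitted besides.

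The members and gene lists were chosen with earlier results of these data known. Named genes were, per list, up to 4 called members with the largest absolute log2 difference among those averaging at least 20 CPM and up to 2 uncalled members of the highest mean CPM, the 10 genes with the largest rise and the 10 with the largest fall in CPM, the 5 with the largest log2 difference each way, Gfi1, and the ribosomal paralogs with their partners. Genes outside this rule are said to be chosen after their values were seen. Some genes that the rule names are not reported here. Genotype follows the hashtag labels. Libraries with the same number share a droplet run, so the number pairs them, and their deviations from the group means correlated (r = 0.263 over 18056 genes, which are not independent replicates). Totals per splenic library were 42091895 to 69504211 UMIs, and precision was limited by the 2 libraries per genotype. The fit was also run on simulated counts in which few genes changed, evenly up and down. That setting is unlike these data, so the run does not check the fit for them. Sequences are RefSeq start regions of GRCm38.p6, and no coordinates were carried over to GRCm39. Protein sequences were not used here.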

Additional observations from a re-analysis of the deposited data

Results flagged for a closer look

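The ribosomal share of UMIs fell by 6.72 points from WT to KO in spleen in both pools, while in thymic γδ T cells it was higher in KO in both pools (by 0.135 points on average), and the difference between the compartments was not tested. The mitochondrial share likewise fell by 0.291 points in spleen and was higher in thymic KO cells by 0.766 points, again not tested as a difference, and within spleen the libraries of the genotypes overlapped.

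Of the 20 genes with the largest rise or fall in CPM in spleen, 10 had a splenic effect that differed from the thymic effect. This was by the interaction test (edgeR, Benjamini-Hochberg adjusted over all genes), with sex of the animals not separable from compartment. The genes were picked by their splenic change, which by itself favours such a difference, so the count is description only. Over all genes tested the shares were 13% on the higher and 14.2% on the lower side. The splenic minus thymic log2 difference was 1.74 for Lgals1 (adjusted p = 0.000383), 0.78 for Actb (0.00651) and 2.21 for Maf (0.00222), all higher in spleen. It was −4.86 for the long RNA gene Gm2682 (0.000719) and −1.78 for Ccl5 (0.00293). Among ribosomal proteins it was −0.996 for Rps24 (0.00907), −0.83 for Rplp1 (0.00993), −0.84 for Rpl13 (0.0211), −0.76 for Rps16 (0.0205) and −0.79 for Rpl23 (0.0218).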

How the results depend on the processing

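Over 12 alternatives for the whole pool, 181 of 247 tested named genes kept their verdict in every alternative, 21 of the 165 called ones lost the call in at least 1, 45 of the others gained it, and 0 of the called ones changed sign. Among these alternatives, asking for at least 200 genes per cell removed no further cell, so it could change no verdict. The fit without ribosomal, mitochondrial and Gm genes did not test those genes. The counts over all genes stayed within 1.5 times the 4751 higher and 4675 lower, for instance 4695 and 4401 with DESeq2, 3935 and 5330 when scaled by library size alone, and 5100 and 4931 with the replicate block that pairs libraries of the same pool. The ribosomal share fell by 5.42 points as a mean over cells and by 7.54 to 5.89 points when a library was left out. The difference in mitochondrial share turned to 0.0226 points without WT replicate 1 and 0.0788 points without KO replicate 2 (range −0.661 to 0.0788). Leaving out a library breaks a pair, and within pools the difference was −0.235 and −0.348 points. Large subunit genes called lower numbered 34 when scaled by library size alone, 34 with only the 4 splenic libraries and 35 with the block, and 3 to 15 when a library was left out, and small subunit genes 5 to 19. Within Trgv6-called cells 1033 genes were higher without the filter on low counts and 440 with DESeq2. With at least 2 Trgv6 UMIs and no other γ chain UMI, 611 genes were called, 244 higher and 367 lower, and Eomes, lower in the main comparison, had a log2 difference of 0.0628 (adjusted p = 0.993 in edgeR's test). Leaving out a library gave 572 to 2193 genes there, 237 to 1121 higher and 320 to 1072 lower, and the lone library of a group is then assumed to vary like the others. With the block 865 rose and 999 fell. Where a count or call changed, the cause was not tested, apart from the fewer libraries or cells by construction. In the Trgv6-called comparison the WT libraries held only 188 and 229 cells, and how far this limits the calls was not tested. No alternative left out both libraries of pool 1, in which Igkc and Jchain were higher than in pool 2.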
